A study of Mus musculus with 19 samples.

Results

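MHCII-/- thymocytes were compared with wild-type thymocytes from mice sorted in the same way and measured in the same experiment. The cells were those of MHCII-/- replicates 1 and 2 and of wild-type (WT) replicates 2 and 3 that held at least 200 detected genes and at most 15% mitochondrial RNA. These rules kept 15930 cells of 4 mice, 4732 and 2471 from the WT mice and 3492 and 5235 from the MHCII-/- mice, out of 85389 cell barcodes on 19 lanes in the whole series. MHCII-/- mice lack H2-Ab1, the gene of the I-A beta chain, in every cell, and the WT mice were C57BL/6 (B6). All were females of 4 to 8 weeks, neither genotype carried a transgenic T cell receptor (TCR), and each mouse was measured in 1 lane. Live single thymocytes had been sorted for surface TCRb and CD5 to enrich those undergoing positive selection, then measured by CITE-seq, in which RNA and 111 antibodies carrying DNA barcodes are counted in the same cell as unique molecular identifiers (UMIs). The 2 MHCI-/- mice of that experiment, which lack B2m, and WT replicate 1 are mentioned only where their values bear on a result.

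Major histocompatibility complex (MHC) class II molecules present peptides to the TCR of T cells that carry CD4, and MHC class I molecules present them to T cells that carry CD8. A CD4+CD8+ double positive (DP) thymocyte is rescued from death when its TCR binds either class weakly. TCRs that bind class II direct the cell to the CD4 single positive (SP) helper fate through GATA3 and the transcription factor ThPOK, encoded by Zbtb7b, and TCRs that bind class I direct it to the CD8 SP cytotoxic fate through RUNX3. Invariant natural killer T (NKT) cells, selected on CD1d, and gamma-delta T cells do not need class II.

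The 4 lanes held 14168470 to 39535917 RNA UMIs and 9605070 to 19237367 antibody UMIs in the cells kept, and the median cell held 4151 to 5433 RNA UMIs. UMIs were summed over the cells of each mouse, so that the mouse was the replicate, with 2 in each group. RNA levels are given as CPM, the UMIs of a gene per 1000000 RNA UMIs summed over the cells of a mouse, antibody levels as UMIs per 10000 antibody UMIs, and values in a row as WT 2, WT 3, MHCII-/- 1 and MHCII-/- 2. Differences are log2 fold changes of MHCII-/- over WT with the standard error (SE) of edgeR's quasi-likelihood test, and a feature is called at an adjusted p under 0.05. In such sums, fewer cells of a type and less RNA per cell cannot be told apart. T cell marker RNA (Cd3d, Cd3e, Cd3g, Trac, Trbc1, Trbc2, Cd5 and Lck) summed to 12600, 11000, 12100 and 12200 CPM, as the sort would give.

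The genotype was visible at the protein level. The antibody to I-A/I-E, the class II molecules, stood at 53.3 and 48.6 per 10000 in the WT mice and at 2.26 and 2.25 in the MHCII-/- mice, a log2 fold change of -4.49 ± 0.14 (edgeR adjusted p = 2.67e-41). H2-Ab1 RNA (chr17:34257689-34269419, plus strand, GRCm38) was at 5.70, 8.33, 9.10 and 9.08 CPM, with a log2 fold change of 0.36 ± 0.22 (edgeR adjusted p = 0.547). Its groups did not overlap and the higher values were those of the MHCII-/- mice. UMIs here count the 3′ ends of transcripts, so the H2-Ab1 count does not show whether a functional message was made and checks nothing. Summed RNA of 4 B cell markers, which B cells express together with class II, was 7.33 and 13.1 CPM in the WT mice and 1.10 and 1.19 CPM in the MHCII-/- mice, and Cd79a and Igkc were called lower. The part of B cells in the antibody difference was not tested.

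CD4 SP cells made up a smaller share of the sorted cells in both MHCII-/- mice. Gates were drawn on the CD4 and CD8a antibodies at the density minima of WT 2 and 3 cells, at 66.9 and 89.5 per 10000. The CD4 SP gate held 40.0% (95% exact binomial interval 38.6 to 41.4) and 46.3% (44.3 to 48.3) of WT cells, against 5.01% (4.31 to 5.79) and 5.56% (4.95 to 6.21) of MHCII-/- cells. The means were 43.1% ± 4.48 and 5.29% ± 0.387 (SD, n = 2 each), 8.16-fold lower in the MHCII-/- mice, and the groups did not overlap. These intervals cover counting error only.

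DP cells made up 49.7% and 39.6% of WT cells and 74.9% and 75.7% of MHCII-/- cells, means of 44.6% ± 7.16 and 75.3% ± 0.625. CD8 SP cells made up 9.38%, 12.9%, 18.8% and 17.6%, means of 11.1% ± 2.49 and 18.2% ± 0.843, 1.63-fold higher in the MHCII-/- mice. Both shares were higher in each MHCII-/- mouse than in either WT mouse, whereas cells negative for both coreceptors, at 0.951%, 1.21%, 1.35% and 1.11%, overlapped between the genotypes. With 2 mice against 2, the exact permutation test over mice cannot give a two-sided p below 0.333, which was the value for the first 3 gates (0.667 for the last).

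Shares of gates sum to the whole, so the denominator was also changed, after these values had been seen. Per 100 DP cells, there were 80.4 and 117 CD4 SP cells in the WT mice and 6.69 and 7.34 in the MHCII-/- mice, a 14.1-fold lower mean. CD8 SP cells per 100 DP cells were 18.9 and 32.6 in the WT mice and 25.1 and 23.2 in the MHCII-/- mice, means of 25.7 ± 9.72 and 24.2 ± 1.32 (exact permutation p = 1.0). On that scale the MHCII-/- values lay between those of the WT mice, and the same held among cells outside the CD4 SP gate, of which 19.8% ± 5.95 and 19.2% ± 0.812 were CD8 SP. The higher CD8 SP share therefore did not hold once CD4 SP cells left the denominator, and the WT spread would hide a moderate difference.

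**Figure D1:**
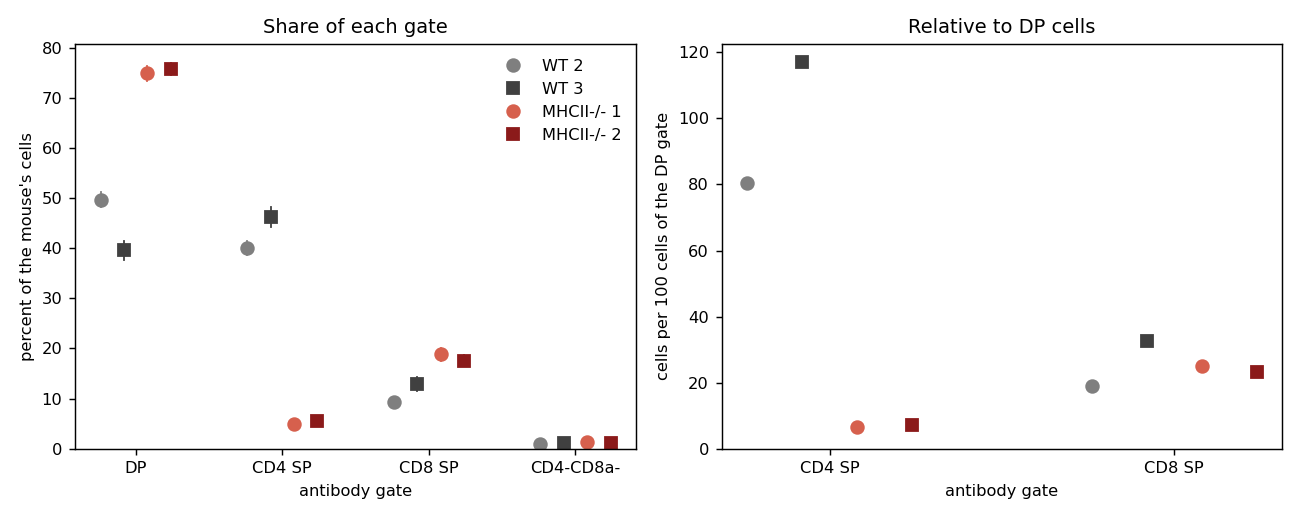
Percent of kept cells in the CD4 and CD8a antibody gates for each of the 4 mice, with 95% exact binomial intervals as bars (left), and SP cells per 100 DP cells (right). The CD4 SP gate holds 40.0% and 46.3% of WT cells and 5.01% and 5.56% of MHCII-/- cells, and the DP gate holds more cells in both MHCII-/- mice than in either WT mouse.

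Over all sorted cells, 5 of 15 CD4 lineage genes were called lower and 5 of 18 CD8 lineage genes higher in MHCII-/- mice, beside the change in gate shares. Of 12262 genes tested, 34 were called higher and 103 lower, 1.12% (edgeR quasi-likelihood test with Benjamini-Hochberg adjustment). Zbtb7b, the ThPOK gene, stood at 31.5 and 25.8 CPM in the WT mice and at 2.16 and 2.66 CPM in the MHCII-/- mice (log2 fold change -3.59 ± 0.16, edgeR adjusted p = 0.00141). Cd40lg, the ligand by which helper T cells activate B cells, was at 50.3, 42.6, 14.1 and 13.8 CPM (-1.76 ± 0.10, edgeR adjusted p = 0.00263). Both genes were several times higher in each WT mouse than in either MHCII-/- mouse.

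Of the CD4 lineage list, 0 genes were called higher, St8sia6, Bach2 and Tbc1d4 were lower beside those described, and the list's median log2 fold change was -0.17 against 0.00 for all genes tested. Of the CD8 lineage list, 0 genes were called lower, and its median was 0.63. Runx3 was at 89.3, 85.7, 148 and 153 CPM (0.75 ± 0.09), and Cd8a, a coreceptor chain, at 506, 499, 901 and 873 CPM (0.78 ± 0.09). Nkg7, which encodes a protein of cytotoxic granules, was at 114, 119, 228 and 249.9 CPM (1.00 ± 0.11). Cd8b1 and Itgae, the gene of integrin CD103, were the other members called. In each of these the MHCII-/- mice lay above both WT mice.

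Tnfrsf4, encoding the costimulatory receptor OX40, which regulatory T (Treg) cells carry, was at 69.4, 88.2, 17.1 and 12.2 CPM (log2 fold change -2.48 ± 0.22, edgeR adjusted p = 0.0195). It was 1 of 5 Treg list genes called lower among 15 tested, together with Ikzf4, Tnfrsf18, Gpr83 and Izumo1r, while Il2rb, the IL-2 receptor beta chain, was called higher and the list's median was -0.86. Foxp3, the defining Treg factor, was at 7.33, 9.03, 4.49 and 2.33 CPM and was not called. Il6ra, the IL-6 receptor, Slfn1 and Slfn5 of the Schlafen family, the RNA helicase gene Ddx60 and Itgb3, an integrin chain, were among the 12 largest falls, at log2 fold changes of -1.94 to -1.18. Rag1, needed to assemble TCR genes and active in DP cells, was higher at 93.3, 96.4, 184 and 170.2 CPM (0.86 ± 0.10), and Cxcr6, a chemokine receptor of NKT cells, was higher by 1.33 ± 0.13 on the log2 scale. Of 15 interferon-stimulated genes tested 4 were called lower, and of 17 maturation genes 3.

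Surface proteins moved in the same sums. Of 111 antibodies, 9 were called higher and 15 lower, 21.6%. CD8a was at 344.5, 415, 688 and 663.5 per 10000 (log2 fold change 0.86 ± 0.17, edgeR adjusted p = 6.32e-05), and CD8b, integrin b7, CD28 and CD103 also rose. CD5, whose level follows the strength of TCR signaling, was at 1805, 1803, 1170 and 1251 per 10000 (-0.56 ± 0.17, edgeR adjusted p = 0.0108). TCRb, at 79.2, 107.5, 61.9 and 65.8, and Sca-1, at 73.1, 101.5, 39.5 and 40.2, were lower in both MHCII-/- mice. Scaling by library size instead of TMM called 4 antibodies higher and 4 lower.

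Leaving out a mouse moved these counts. The RNA calls numbered 635 without WT 2, 842 without WT 3, 85 without MHCII-/- 1 and 62 without MHCII-/- 2, and the antibody calls 47, 51, 2 and 2 in that order. A log2 fold change over all sorted cells mixes the composition of the sort with expression inside each population, and the gates below separate these as far as 2 antibodies allow.

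Within the DP gate taken whole, few features were called. Of 11456 genes tested 5 were called higher and 2 lower, 0.0611%, with 605 genes at an unadjusted p under 0.05. No gene of any list was called, which does not show that their levels were alike. Zbtb7b, at 7.66, 6.27, 1.06 and 1.09 CPM, and Itgae, at 8.86, 8.23, 19.1 and 18.8 CPM, were apart between the genotypes. Dntt, at 535, 703, 714 and 507 CPM, overlapped. Of the 7 genes called, Rnaset2b, Glo1, A930015D03Rik, Gm20478 and H2-T3 lie on chromosome 17 with H2-Ab1, where linked sequence cannot be told apart from class II loss. A930015D03Rik, an antisense gene 1.74 Mb after H2-Ab1, was at 1.59, 2.35, 22.6 and 22.3 CPM in the DP gate (log2 fold change 3.59 ± 0.23, edgeR adjusted p = 0.0201), and the levels of the other 4 over all sorted cells are given with chromosome 17 at the end. Rab4a, a small GTPase gene of endosomal recycling on chromosome 8, was at 1.69, 0.784, 16.8 and 16.4 CPM in the DP gate. In the MHCI-/- mice it was at 9.99 and 14.1 CPM, so that it was higher than in WT 2 and 3 in all 4 MHC-deficient mice. Whether this goes with loss of MHC or with other sequence of these lines was not tested.

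Of the antibodies, 2 were called higher and 2 lower in the DP gate, 3.6%. Integrin b7 was at 23.9, 26.2, 43.8 and 40.1 per 10000 (log2 fold change 0.72 ± 0.11, edgeR adjusted p = 0.00267), higher in both MHCII-/- mice, and I-A/I-E was at 49.7, 50.0, 1.43 and 1.54. CD55 and CD23 were called at fewer than 3 per 10000, and scaling by library size called 3 antibodies higher and 1 lower. CD4 was at 673, 556, 975 and 997 per 10000 (0.65 ± 0.20) and TCRb at 41.7, 47.3, 57.8 and 64.2 (0.43 ± 0.13), higher in each MHCII-/- mouse but not called (edgeR adjusted p = 0.134 for each). CD4 was used to draw the gate. Leaving out WT 2, WT 3, MHCII-/- 1 or MHCII-/- 2 gave 34, 36, 56 and 36 RNA calls and 27, 29, 5 and 2 antibody calls in the DP gate.

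DP cells that have received a TCR signal carry CD69, and they were set apart with an antibody threshold of 36.4 per 10000, also at a density minimum. CD69-positive cells were 42.2% and 36.8% of WT DP cells and 44.1% and 49.7% of MHCII-/- DP cells. The part that also carried CD127, the IL-7 receptor chain, was 368 of 2352 and 166 of 978 DP cells in the WT mice, against 21.3% and 25.1% in the MHCII-/- mice, means of 16.3% ± 0.938 and 23.2% ± 2.69 that did not overlap, and the part without CD127 was 26.5%, 19.8%, 22.8% and 24.5%, which overlapped. The CD127 threshold was 4.885 per 10000. Median CD127 per DP cell was 2.91, 2.92, 2.8 and 3.19 per 10000, and the antibody was not called there (log2 fold change 0.29 ± 0.10, edgeR adjusted p = 0.173). DP cells held medians of 2872.5, 3572, 4987.5 and 3523 antibody UMIs, so few UMIs reach that threshold. The part of depth in these shares was not tested. In WT 1, of another experiment, 81.9% of DP cells passed the CD127 threshold, against 28.2% and 31.4% in WT 2 and 3, and that mouse was not used for these shares.

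In CD69-positive DP cells, 10 of 23 TCR signal targets and 3 of 14 CD4 lineage genes were called lower in MHCII-/- mice, and 4 of 16 CD8 lineage genes higher. Of 10259 genes tested 50 were called higher and 84 lower, 1.31%. On chromosome 17, with H2-Ab1, 25 of 545 genes tested were called (4.59%), against 109 of 9699 on other chromosomes (1.12%). All 25 lay in the first 40 Mb, where linked sequence cannot be told apart from class II loss. Zbtb7b was at 12.7, 14.2, 1.32 and 0.871 CPM (log2 fold change -3.63 ± 0.38, edgeR adjusted p = 5.60e-05). Gata3, which acts upstream of Zbtb7b, was at 197, 173.5, 104 and 97.9 CPM (-0.87 ± 0.10, edgeR adjusted p = 0.000236), and Cd40lg at 55.7, 56.3, 29.3 and 22.9 CPM (-1.10 ± 0.15). In all 3 both MHCII-/- mice lay below both WT mice, and they were the members called among 14 CD4 lineage genes, whose median was -0.35 against -0.01 for all genes.

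Runx3 was at 109, 131, 169 and 167 CPM in these cells (0.54 ± 0.12, edgeR adjusted p = 0.0337), and Cd8a at 543, 534, 759 and 774 CPM (0.53 ± 0.11). With Itgae and Ctsw, the gene of the protease cathepsin W, they were the 4 members called higher of 16 CD8 lineage genes, with 0 called lower and a median of 0.53. In the MHCI-/- mice the same cells held 27.0 and 43.7 CPM of Zbtb7b and 34.5 and 37.4 CPM of Runx3, outside the range of all 4 mice compared here for both genes.

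Of 23 TCR signal targets tested, 10 were called lower and 0 higher, against 0.819% of all genes called lower, with a median log2 fold change of -0.51. Cd5 was at 545, 467, 333 and 314.5 CPM (-0.63 ± 0.11, edgeR adjusted p = 0.00602). Nr4a1, an immediate early transcription factor gene, was at 167, 145, 105 and 98.1 CPM (-0.61 ± 0.11), and Nr4a3, of the same family, at 40.6, 48.1, 17.4 and 19.1 CPM (-1.19 ± 0.16, edgeR adjusted p = 0.000495). Itm2a, a membrane protein gene induced during positive selection, was at 1624, 1716, 871 and 937 CPM (-0.87 ± 0.12, edgeR adjusted p = 0.000833). In every one of these the higher MHCII-/- mouse lay below the lower WT mouse.

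Cd6, Dusp5, Nfkbid, Bcl2a1d, Tagap and Cd69 itself were also called lower, Cd69 at 302, 215, 171 and 171 CPM although the cells had been chosen by its protein. Bcl2l11, the gene of the death-promoting protein BIM, at 176, 141, 104 and 102 CPM (-0.62 ± 0.11), and Gadd45b, a stress and NF-kB response gene, at 82.0, 48.1, 25.5 and 28.9 CPM (-1.31 ± 0.18), were the 2 members called among 8 negative selection genes. Among 16 cell cycle genes, Top2a, Mki67 and Tyms were called higher, at log2 fold changes of 0.96 to 1.20. Tagap lies on chromosome 17 and shares sequence with Tagap1, so its count is uncertain.

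Without WT 2, WT 3, MHCII-/- 1 or MHCII-/- 2 the calls in CD69-positive DP cells numbered 353, 873, 53 and 58, and the TCR signal targets called lower 11, 15, 4 and 4, with 1 higher without WT 3 and list medians between -0.67 and -0.44. In the same order the CD4 lineage genes called lower numbered 4, 10, 3 and 3 (medians of -0.13, -0.42, -0.31 and -0.32) and the CD8 lineage genes called higher 3, 7, 1 and 1, with 1 lower without WT 3 (medians of 0.25, 0.82, 0.58 and 0.29). The larger share of CD127-positive cells and the higher RNA of 4 CD8 lineage genes moved together with the lower target genes, and their part in the result was not tested.

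**Figure D2:**
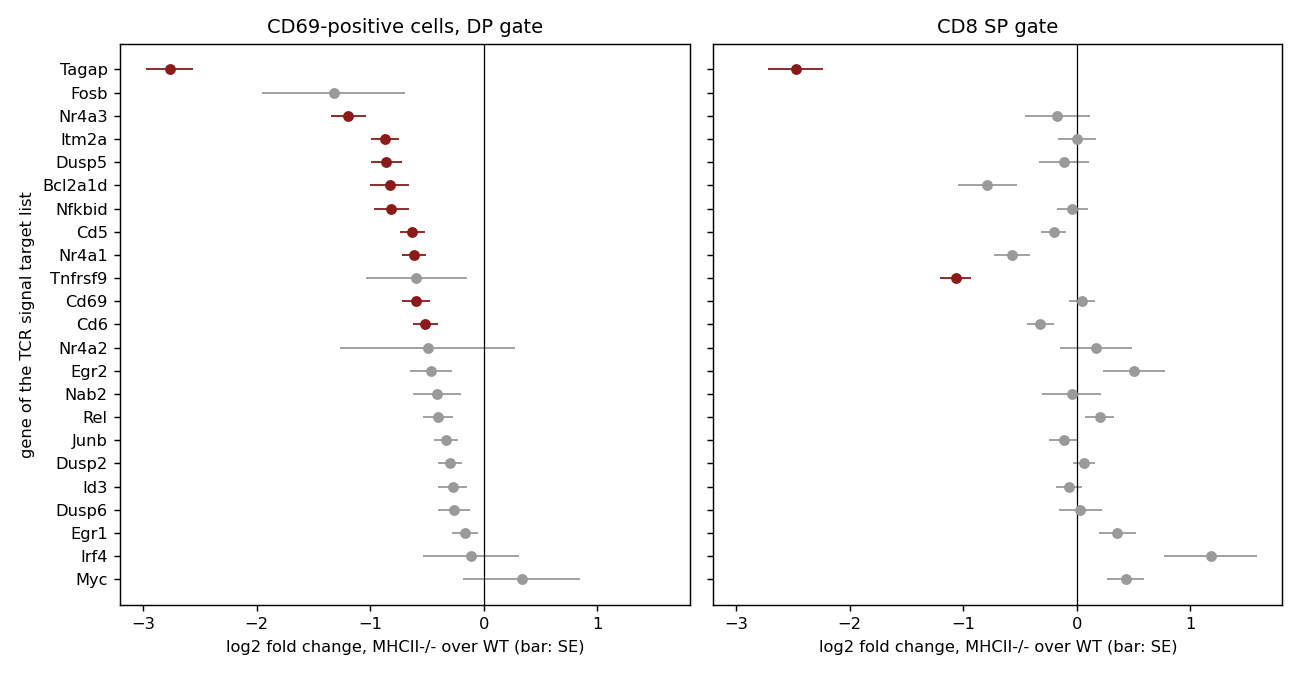
Log2 fold change of MHCII-/- over WT (x axis, with SE as bars) for each TCR signal target tested, in CD69-positive DP cells and in the CD8 SP gate. Red points passed the edgeR threshold, 10 of 23 in CD69-positive DP cells, all lower in MHCII-/- mice, and 2 of 22 in the CD8 SP gate.

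The few MHCII-/- cells that fell in the CD4 SP gate differed most from the WT cells of the same gate. There were 1891 and 1144 such cells in the WT mice and 175 and 291 in the MHCII-/- mice. Of 10316 genes tested, 857 were called higher and 806 lower, 16.1% (8.31% higher and 7.81% lower), and with library size scaling 984 and 587. Zbtb7b, at 65.8, 52.6, 19.1 and 20.9 CPM (log2 fold change -1.62 ± 0.17, edgeR adjusted p = 6.35e-06), and Cd4, at 204, 174, 85.3 and 91.8 CPM (-1.15 ± 0.12), were lower in both MHCII-/- mice. Runx3 was higher, at 50.9, 46.1, 128.5 and 108 CPM (1.21 ± 0.13), and so was Nkg7, at 34.0, 25.6, 212.5 and 176 CPM (2.62 ± 0.15).

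Counted by list, 5 of 15 CD4 lineage genes were called lower and 2 higher, with a median of -0.11, and 8 of 15 CD8 lineage genes higher and 0 lower, with a median of 1.53 against -0.01 for all genes. Cd40lg was among those lower, at 90.1, 81.6, 70.6 and 60.6 CPM (-0.47 ± 0.13), a smaller change than over all sorted cells. Bach2 and Tcf7, transcription factor genes of resting and early T cells, were also lower, and the 2 called higher were Myb and Icos, a costimulatory receptor. In CD69-positive cells alone Icos was at -0.47, and in CD69-negative cells Cd40lg at 0.02. Ccl5, Cst7, Ctsw, Klrd1, Itgae and Cd8a were the further CD8 lineage genes called. Cd8b1 was not among them, at 61.7, 47.7, 67.5 and 50.0 CPM, which overlapped between the genotypes. The part of NKT and gamma-delta cells in these calls was not tested. The CD8a antibody, which drew the gate, was at 18.3, 16.1, 43.9 and 47.4 per 10000, below the threshold of 89.5 but higher in the MHCII-/- mice.

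The CD4 antibody, which drew the gate at a threshold of 66.9 per 10000, had medians per cell of 1030, 933, 619 and 713 and lower quartiles of 832, 754, 266 and 317. The MHCII-/- cells of the gate thus reached further down toward the threshold, while their upper quartiles, 1270 and 1320, were not below those of WT, 1240 and 1130. The part of these CD4-low cells in the RNA and antibody differences of the gate was not tested.

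Genes of innate-like T cells stood out among the rises. Zbtb16, the gene of PLZF, the transcription factor that defines NKT cells, was at 2.56, 4.51, 67.5 and 80.8 CPM (log2 fold change 4.40 ± 0.24, edgeR adjusted p = 7.66e-08), and its levels in the MHCI-/- mice were 0.0944 and 0. Of 16 NKT and innate-like genes tested 10 were called higher and 0 lower, with a median of 2.53. Cxcr6 was at 11.4, 12.1, 108 and 124 CPM (3.25 ± 0.15), and Tbx21, Cxcr3, Cd160, Slamf6, Il17rb, Fcer1g, Il18r1 and Il18rap were the rest, of which Il18r1 turned to -0.35 in CD69-positive cells alone. Trav11, the V segment of the invariant NKT receptor alpha chain, was at 1.18, 0.484, 10.2 and 7.95 CPM (3.22 ± 0.51) and was the segment called higher among 12 Trav segments tested, with Trav10 and Trav4-4-dv10 called lower. The low-count filter kept genes with enough counts in either group, so a list member could be tested through the MHCII-/- mice alone. Tbx21, at 1.28, 1.13, 12.1 and 8.28 CPM, and Trav11 were low in both WT mice. Counts and medians of such lists are a description only. Over all sorted cells Zbtb16 was at 1.47, 2.4, 6.69 and 7.71 CPM. There Klrb1c, another NKT marker, was at 3.69, 1.2, 6.05 and 3.59 CPM, which overlapped between the genotypes. The CD4 SP gate held a smaller share of MHCII-/- cells, so levels within it do not count NKT cells.

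Of 10 gamma-delta T cell genes tested, 7 were called higher and 0 lower, with a median of 2.55. Tcrg-C1, a constant region of the gamma chain, was at 3.65, 9.67, 56.6 and 55.7 CPM (3.09 ± 0.52, edgeR adjusted p = 0.0417), Tcrg-C2 at 6.995, 7.58, 80.2 and 73.6 CPM (3.33 ± 0.17) and Trdc, the delta constant region, at 24.4, 13.5, 100.5 and 89.8 CPM (2.22 ± 0.24). Tcrg-C4, Trgv2, Maf and Cd163l1 were the others. The constant regions of the gamma locus resemble each other in sequence, so the split between them is uncertain. Over all sorted cells Tcrg-C1 was at 7.58, 9.03, 12.8 and 10.2 CPM. The gamma-delta markers Sox13, Trdc and Tcrg-C1 summed there to 64.8, 79.5, 99.3 and 77.9 CPM, which overlapped between the genotypes. The CD4 SP gate held a smaller share of MHCII-/- cells, so levels within it do not count gamma-delta cells. Whether the TCRb and CD5 sort held more of them was not tested.

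The 12 largest rises also held Csf1, a macrophage growth factor gene, at 0.0985, 0.645, 15.9 and 25.5 CPM, Hhex, a homeobox gene, at 0.887, 0.967, 22.9 and 22.2 CPM, and Ccr10, a chemokine receptor of skin and mucosal T cells, at 0.985, 2.74, 61.1 and 54.7 CPM. S100a6, a calcium-binding protein gene, rose from 30.9 and 42.9 to 592 and 506 CPM, and Ccr2 from 3.65 and 6.61 to 66.2 and 66.3 CPM. Steap3, Rbpms, Sox5 and Ly6c2 and the noncoding RNAs 9530036M11Rik and 2600014E21Rik complete the group, with log2 fold changes of 3.68 to 5.92 over the 12 genes. Pdcd1, the gene of the inhibitory receptor PD-1, was at 28.6, 28.2, 224 and 222 CPM (2.90 ± 0.12), and Ikzf2, encoding Helios, a factor of agonist-selected cells, at 229, 189, 617 and 739.5 CPM (1.64 ± 0.12). The 12 genes were chosen for groups that do not overlap, and those of Pdcd1 and Ikzf2 did not overlap either.

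The share of cells with a UMI was counted for a few of these genes. With each cell thinned to 1500 RNA UMIs, Zbtb16 UMIs were found in 0.212% (95% exact binomial interval 0.0579 to 0.543) and 0.263% (0.0543 to 0.766) of WT cells of the gate, and in 4.68% (2.04 to 9.01) and 5.96% (3.51 to 9.38) of MHCII-/- cells. In the DP gate, which should lack it, the shares were 0 of 2292 and 0 of 951 WT cells, which at 3 cells of the total allows shares of up to 0.131% and 0.315% (exact upper limits of 0.161% and 0.387%), and 0.156% and 0.104% of MHCII-/- cells. Without thinning the shares in the CD4 SP gate were 0.793%, 1.05%, 17.7% and 19.9%, at medians of 4943, 4748, 6914 and 7590 RNA UMIs per cell. Detection depends on depth, so these are shares of cells with a UMI and not of cells expressing the gene. Tcrg-C1 UMIs were in 0.159%, 0.438%, 6.43% and 3.86% of thinned cells, and Hhex UMIs in 0%, 0.0876%, 4.68% and 1.75%.

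Foxp3 UMIs were in 2.12%, 2.89%, 1.75% and 1.05% of thinned CD4 SP cells, and Foxp3 RNA, at 14.97, 17.4, 14.6 and 3.64 CPM, was not called (edgeR adjusted p = 0.327). Of 15 Treg list genes 5 were called higher, namely Ikzf2, Il2rb, Capg, Izumo1r and Nrp1, and 3 lower, namely Ikzf4, Tnfrsf18 and Cish, with a median of -1.09. In CD69-positive cells alone Nrp1, Capg and Izumo1r had log2 fold changes of the other sign, -3.10, -0.38 and -0.08. The 4 markers of Treg cells fixed for the check of labels summed to 275, 242, 661 and 749 CPM in the gate. Most of that sum was Ikzf2, while Foxp3, Il2ra and Ctla4 were not higher in the MHCII-/- mice. The 4 markers of NKT cells summed to 45.0, 28.7, 164 and 139 CPM, and the 3 of gamma-delta cells to 29.3, 25.3, 167 and 147 CPM. Of the NKT markers Slamf1, at 37.0, 21.9, 26.1 and 21.9 CPM, did not rise. B cell markers summed to 1.97, 26.8, 2.55 and 1.66 CPM and myeloid markers to 1.58, 6.29, 19.7 and 4.31 CPM. Epithelial markers summed to 7.49, 5.97, 20.4 and 16.9 CPM, and erythroid markers were at 0 in all 4 mice. Most of the epithelial sum was Epcam, at 7.29, 5.80, 19.7 and 16.9 CPM, while Foxn1 was at 0 in all 4 mice.

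Of 17 maturation genes tested, 14 were called lower and 1 higher in the MHCII-/- cells of the CD4 SP gate, with a median of -0.86. Ccr7, which guides thymocytes into the medulla, was at 326, 407, 84.6 and 86.8 CPM (log2 fold change -2.17 ± 0.14, edgeR adjusted p = 2.85e-07). S1pr1, the receptor that lets mature T cells leave the thymus, was at 143, 194, 52.2 and 53.7 CPM (-1.74 ± 0.19). Klf2, a factor that activates S1pr1, was lower by a smaller factor, at 514, 677, 336 and 387 CPM (-0.79 ± 0.16).

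Other members called lower were Ms4a4b, Ms4a6b, Klf3, Itgb7, Gimap3, Gimap4, Gimap6, Slfn1, Slfn2 and Ly6c1. Ly6c2 went the other way, at 11.8, 6.45, 170.5 and 98.1 CPM, and it shares sequence with Ly6c1, so the split between them is uncertain. Among the 12 largest falls with Ccr7 were Acvrl1, a receptor kinase of the TGF-beta family, the chromatin protein gene Hmga1, Bcl3, a nuclear NF-kB cofactor, and the cell adhesion gene Chl1, at log2 fold changes of -2.57 to -2.11. The others were Rnaset2b, Apol9b, Igsf23, Gramd3, Gm15417, Capn3 and Zc3h6. Hmga1 and Rnaset2b lie on chromosome 17 with H2-Ab1 and were called lower in the CD8 SP gate as well. Gm15417 is antisense to Zbtb7b and overlaps it, and counts of such a pair may share reads.

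Of 15 interferon-stimulated genes tested in the gate, 13 were called lower and 0 higher, with a median log2 fold change of -1.09. Ifit1, an antiviral RNA-binding protein gene, was at 128, 115, 40.7 and 30.5 CPM (-1.88 ± 0.15, edgeR adjusted p = 3.58e-07), Isg15, a ubiquitin-like modifier, at 223, 229, 112 and 102 CPM (-1.16 ± 0.11), and Bst2, which tethers budding virus to the cell, at 156.5, 164.5, 99.3 and 104 CPM (-0.73 ± 0.12). Irf7, Zbp1, Usp18, Oasl2, Ifi27l2a, Ifi203, Ifit3, Isg20 and Rtp4 were also called. The WT mice were above both MHCII-/- mice in every gene of the 13.

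Interferon acts on these genes through a response element made of repeated GAAA. The 250 bases before the annotated start of 3 of these genes are printed from the RefSeq table of GRCm38.p6, 5′ to 3′ on the strand of the gene, to show where such repeats lie. Capitals mark each match, on either strand, to GAAA, any 2 bases and GAAA (TTTC, any 2 bases and TTTC when read on the other strand), and overlapping matches run together.
Ifit1 (chr19:34640639-34640888, plus strand): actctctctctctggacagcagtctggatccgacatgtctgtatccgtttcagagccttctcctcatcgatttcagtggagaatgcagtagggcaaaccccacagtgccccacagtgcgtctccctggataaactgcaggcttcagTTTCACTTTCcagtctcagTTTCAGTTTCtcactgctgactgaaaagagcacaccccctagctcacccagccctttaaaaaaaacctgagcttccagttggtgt
Isg15 (chr4:156200819-156201068, minus strand): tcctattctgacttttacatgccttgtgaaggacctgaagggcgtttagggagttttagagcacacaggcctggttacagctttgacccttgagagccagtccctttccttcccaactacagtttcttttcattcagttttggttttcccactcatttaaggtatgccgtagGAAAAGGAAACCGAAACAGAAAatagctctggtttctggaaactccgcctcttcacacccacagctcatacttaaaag
Bst2 (chr8:71537473-71537722, minus strand): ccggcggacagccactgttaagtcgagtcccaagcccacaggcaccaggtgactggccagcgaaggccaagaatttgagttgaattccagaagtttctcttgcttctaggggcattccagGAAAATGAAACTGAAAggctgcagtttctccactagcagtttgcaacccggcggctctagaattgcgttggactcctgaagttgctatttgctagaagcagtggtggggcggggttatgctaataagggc
Ifit1 held 2 matches between positions -104 and -76 from the start, Isg15 held 3 between -78 and -57, and Bst2 held 2 between -130 and -115. Of the 16 genes of the list 10 had a window in the table and 6 of these held a match, 5 of them among the 13 called lower, of which 8 had a window. Among all 27025 genes with a window, 936 (3.46%) held one. A match is a description of the sequence, not a site shown to act here.

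Of 18 MHC class I presentation genes tested, 11 were called lower and 1, the chaperone gene Calr, higher, with a median of -0.67. Calr was at -0.08 on the log2 scale in CD69-positive cells alone. Of those lower, all but Nlrc5 lie on chromosome 17 with H2-Ab1, and H2-K1, Tap1, Tapbp and Psmb9 are among the 50 genes tested nearest to it. Loss of class II, linked sequence and the mix of cells in the gate cannot be told apart for the genes on chromosome 17. H2-K1, a classical class I heavy chain, was at 1475, 1424, 776 and 608 CPM (log2 fold change -1.14 ± 0.12, edgeR adjusted p = 9.05e-06), and Tap1, a peptide transporter, at 159.7, 157, 89.7 and 81.8 CPM (-0.96 ± 0.12). Of 22 TCR signal targets 9 were called lower and 2 higher, with a median of -0.36. Cd5 was at 327, 303, 159 and 164 CPM (-1.03 ± 0.11), while Id3, an inhibitor of E proteins, was higher at 396, 436, 737 and 799.8 CPM (0.81 ± 0.11).

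Of 11 genes tested from a list of chemokine and other migration receptors, which does not hold Ccr10, 4 were called higher, namely Cxcr4, Cxcr3, Ccr2 and Cxcr6, and 3 lower, namely Ccr7, the oxysterol receptor gene Gpr183 and the sphingosine-1-phosphate receptor gene S1pr1. Of 18 genes of a list of cytokine receptors and their signaling, which leaves out the Il17rb, Il18r1 and Il18rap of the NKT list, 8 were called lower, with Il6ra at 60.9, 62.6, 20.4 and 14.9 CPM, and 2 higher, with Il2rb at 18.0, 15.2, 113 and 88.8 CPM (2.51 ± 0.16).

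**Figure D3:**
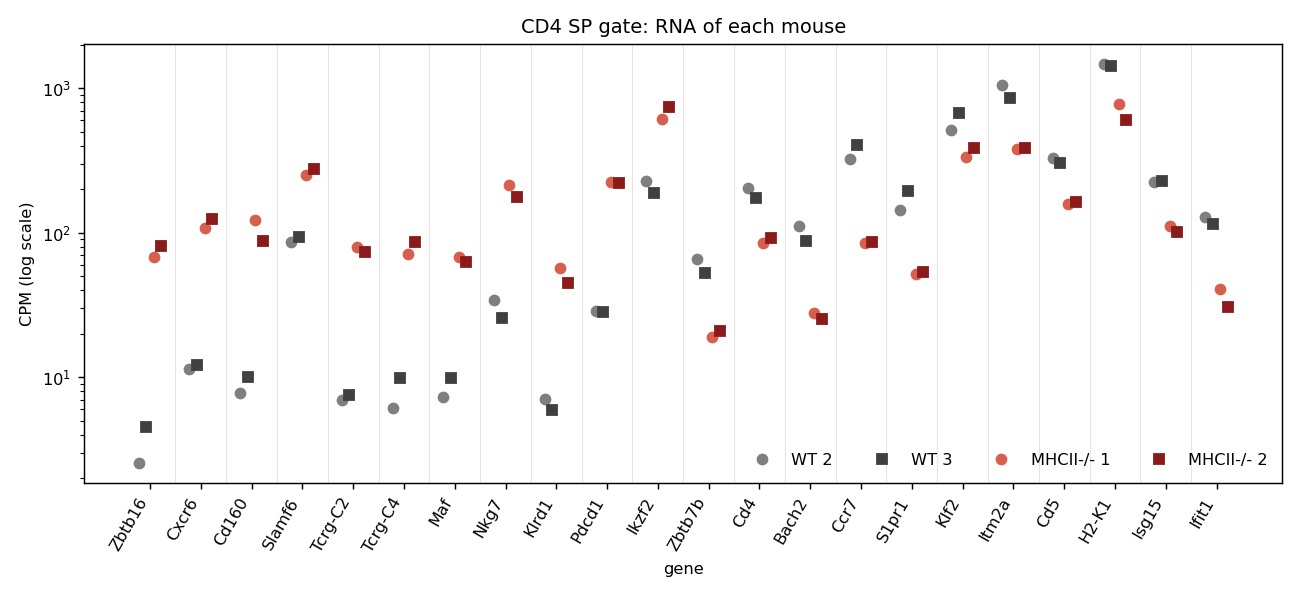
RNA level in the CD4 SP gate (CPM, log axis) of genes of the lineage, innate-like, gamma-delta, maturation, TCR signal, class I and interferon lists, with 1 point per mouse. The 2 MHCII-/- mice lie above both WT mice for Zbtb16 (67.5 and 80.8 against 2.56 and 4.51 CPM) and below both for Ccr7 (84.6 and 86.8 against 326 and 407 CPM).

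Antibodies differed in the gate as well. Of 111 antibodies 18 were called higher and 19 lower, 33.3%, and with library size scaling 19 and 8. TCRb was at 124, 165, 54.5 and 57.6 per 10000 (log2 fold change -1.52 ± 0.26, edgeR adjusted p = 2.31e-07) and CD5 at 2237, 2375, 1634 and 1781 (-0.60 ± 0.15). PD-1 was at 22.6, 24.3, 66.5 and 79.8 (1.48 ± 0.24), ICOS at 255, 229, 779.7 and 681 (1.42 ± 0.20) and Ly-6C at 5.02, 6.56, 77.0 and 41.4 (3.21 ± 0.26, edgeR adjusted p = 4.25e-17). The gamma-delta TCR antibody was at 9.76, 12.2, 17.7 and 21.3 (0.67 ± 0.17). All of these were apart between the genotypes.

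CD28, CD117, CD38, CD73, integrin b7, CD24, CD8a and CD8b were also higher, and GITR, CD86 and CD69 lower. Integrin b7, at 43.4, 55.1, 126 and 81.5 per 10000, rose while the RNA of its gene Itgb7 was called lower. NK-1.1, CD135, CD140a, FceRIa and OX-40 were called lower too, but in each of them both MHCI-/- mice were lower still than both MHCII-/- mice. OX-40, for example, was at 47.4, 59.3, 36.0 and 31.9 per 10000 and at 26.3 and 26.0 in the MHCI-/- mice. RNA of Klrb1c, the gene of NK-1.1, was higher in both MHCII-/- mice, at 4.14, 1.13, 58.5 and 28.5 CPM. The part of staining in the differences of these antibodies was not tested.

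**Figure D4:**
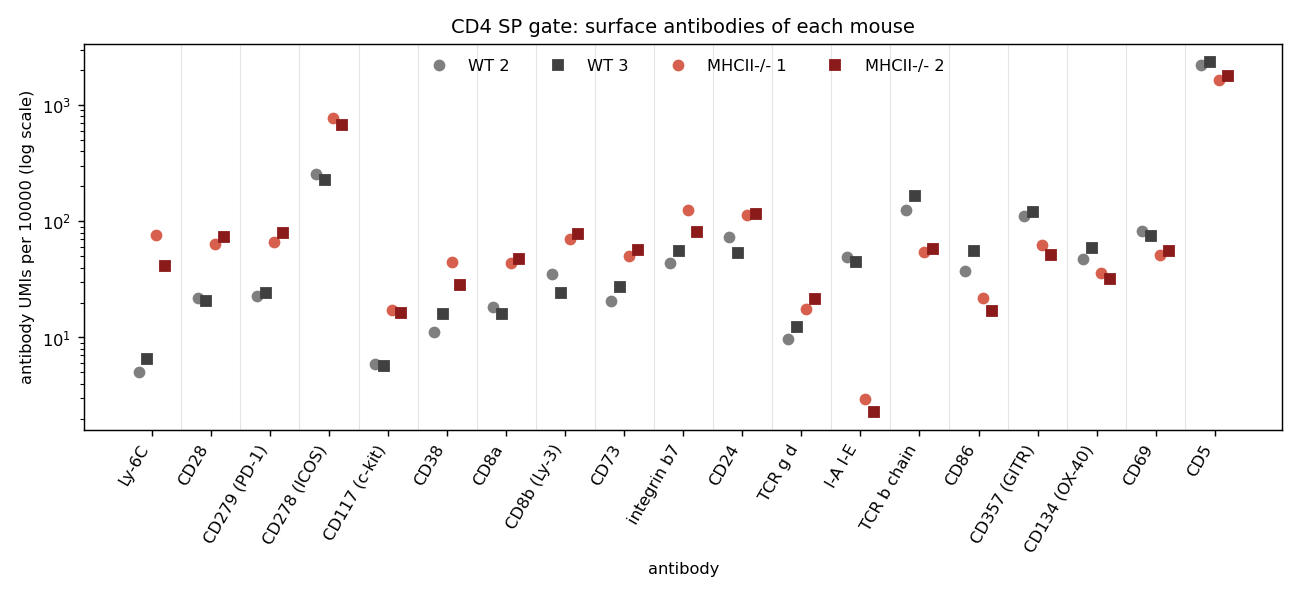
Antibody level in the CD4 SP gate (UMIs per 10000 antibody UMIs, log axis) of antibodies called different, with 1 point per mouse. Ly-6C, PD-1 and ICOS are higher in both MHCII-/- mice, and I-A/I-E and TCRb are lower.

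Of the mice left out in turn, MHCII-/- 1 and MHCII-/- 2 reduced the RNA calls in the CD4 SP gate to 1000 and 877, and removal of WT 2 and WT 3 gave 1855 and 2410. Without WT 2 the antibody calls fell to 24. In CD69-positive cells of the gate alone, 4 of 13 NKT and 1 of 6 gamma-delta genes tested were called higher, against 3.81% of all genes tested there, and in CD69-negative cells 11 of 15 and 6 of 9, against 9.84%. Nothing is read from 1 of 6 genes. The interferon list had 14 of 14 and 12 of 14 genes called lower in these subsets, against 4.9% and 9.04% of all genes.

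The CD8 SP gate gave few calls. It held 444 and 319 WT cells and 656 and 921 MHCII-/- cells. Of 9904 genes tested 8 were called higher and 19 lower, 0.273%, with 785 genes at an unadjusted p under 0.05, and of 111 antibodies I-A/I-E alone was called, 0.901%, with 8 at an unadjusted p under 0.05 (edgeR). None of 16 CD8 lineage, 16 maturation or 15 interferon-stimulated genes was called, and the list medians were -0.02, 0.04 and -0.01. A p that misses the threshold does not show that the levels were alike.

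CD5 antibody in the CD8 SP gate was at 800.5, 1009, 858 and 885 per 10000 (log2 fold change 0.00 ± 0.13) and CD69 antibody at 32.3, 29.9, 31.2 and 31.7 (0.07 ± 0.11). In both the MHCII-/- mice lay between the WT mice. Tnfrsf9, the gene of the costimulatory receptor 4-1BB, was at 39.8, 42.9, 19.1 and 20.04 CPM (-1.06 ± 0.14, edgeR adjusted p = 0.0124) and with Tagap was called among 22 TCR signal targets, whose median was -0.04.

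Arpp21, a gene of immature DP cells, at 32.8, 29.4, 11.96 and 13.8 CPM (-1.26 ± 0.16), and Dntt, which adds bases at TCR junctions (-0.78 on the log2 scale, but 0.63 in CD69-positive cells alone), were the 2 called among 15 immature DP genes. In WT 1, of another experiment, Arpp21 was at 4.47 CPM and Dntt at 36.4 CPM. Both lay below the MHCII-/- mice, in which Dntt was at 38.5 and 41.2 CPM. S100a6 was at 22.2, 34.2, 9.79 and 11.1 CPM (log2 fold change -1.38). Trpm1, a cation channel gene, Pydc3, an interferon-inducible family gene, and Pink1, a mitochondrial kinase gene, were called lower at -0.90, -1.09 and -0.96, and Banp, a nuclear protein gene on chromosome 8, higher at 1.08. Among mice left out in turn, WT 2 and WT 3 raised the RNA calls to 281 and 478 and the antibody calls to 12 and 34, and MHCII-/- 1 and 2 gave 42 and 43 RNA calls.

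Some of the genes called in several gates lie on chromosome 17, the chromosome of H2-Ab1. Over all sorted cells 24 of 652 genes tested on chromosome 17 were called (3.68%), against 112 of 11577 on other chromosomes (0.967%). In the DP gate these were 5 of 602 (0.831%) and 2 of 10828 (0.0185%), and in the CD8 SP gate 13 of 537 (2.42%) and 14 of 9354 (0.15%). All of those called in these 3 sets lay between 27.3 Mb before and 3.01 Mb after H2-Ab1, and 0 of 235, 215 and 192 genes tested beyond the first 40 Mb of the chromosome were called in the 3 sets by edgeR. In the CD4 SP gate calls were spread along the chromosome, with 119 of 553 genes called (21.5%, against 15.8% on other chromosomes), out to 53.4 Mb after H2-Ab1, and 26 of 200 beyond the first 40 Mb.

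Rnaset2b, a ribonuclease gene 27.3 Mb before H2-Ab1, was at 99.6, 109, 3.47 and 3.14 CPM over all sorted cells (log2 fold change -5.02 ± 0.14, edgeR adjusted p = 9.77e-05), while its near-identical copy Rnaset2a was at 97.1, 110.4, 184 and 139 CPM. Reads of such copies may be counted to either, so the level of each is uncertain, and the same holds for Tagap, which fell, and Tagap1, which rose. Glo1, a detoxifying enzyme gene 3.67 Mb before H2-Ab1, was at 93.0, 91.8, 281 and 274 CPM (1.55 ± 0.09, edgeR adjusted p = 0.00263), and Dnah8, which overlaps it on the other strand, at 38.6, 40.9, 107 and 104 CPM. In both genes the 2 MHCII-/- mice lay above the 2 WT mice. Hmga1, 6.70 Mb before H2-Ab1, was at 36.1, 60.8, 5.13 and 4.97 CPM in the CD8 SP gate (-3.23 ± 0.28, edgeR adjusted p = 0.00242) and at 34.8, 45.1, 5.09 and 9.28 CPM in the CD4 SP gate (-2.43 ± 0.27). In the DP gate it was at 52.8, 122.7, 10.6 and 6.36 CPM and was not called (edgeR adjusted p = 0.402).

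H2-T3, a nonclassical class I gene of thymocytes 1.93 Mb after H2-Ab1, was at 0.377, 0.847, 63.8 and 44.1 CPM (6.55 ± 0.38, edgeR adjusted p = 0.00785), and the antisense gene Gm20478 nearby at 0.419, 0.635, 47.3 and 32.2 CPM. H2-T22, another nonclassical class I gene, was at 158, 162, 420 and 321 CPM over all sorted cells (1.17 ± 0.14) and at 188, 190, 122 and 105 CPM in the CD4 SP gate (-0.82 ± 0.12), where it was called lower. In the MHCI-/- mice Glo1 was at 97.4 and 101.6 CPM and H2-T3 at 0.447 and 0.048 CPM, near the WT levels. The 50 genes tested nearest to H2-Ab1, 25 on each side, held 0 calls over all sorted cells, in the DP gate and in the CD8 SP gate, with medians of -0.13, -0.03 and 0.03, and 4 higher and 12 lower in the CD4 SP gate. The deleted gene and the sequence inherited with it separate the genotypes together, so an effect of class II loss and a difference in linked sequence cannot be told apart for these genes.

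**Figure D5:**
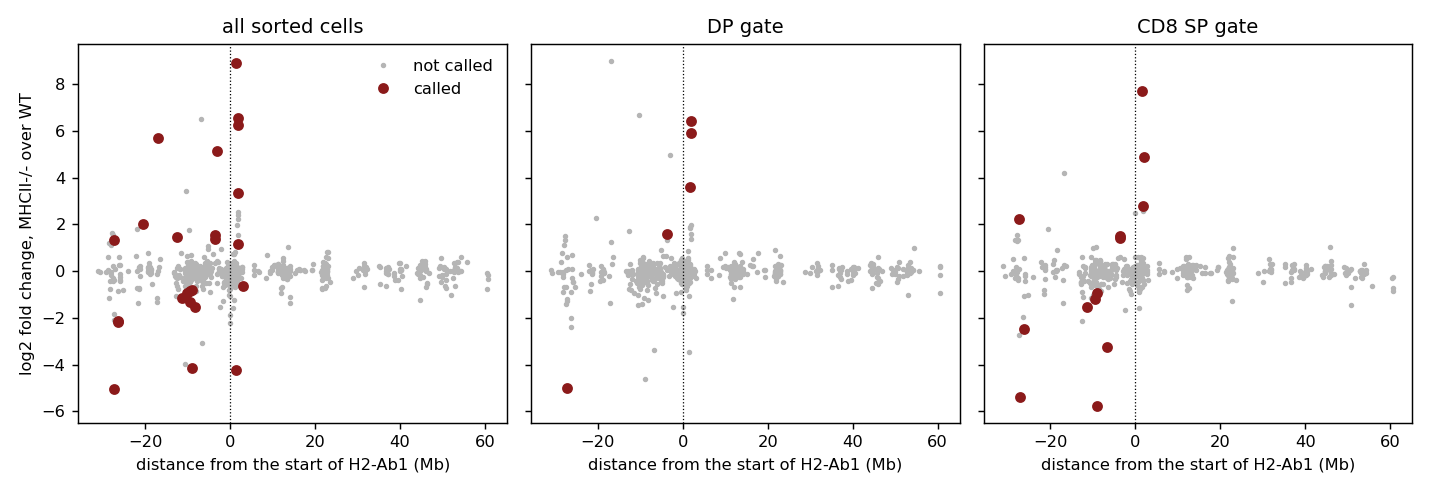
Log2 fold change of MHCII-/- over WT for genes of chromosome 17 (y axis) against distance from H2-Ab1 in Mb (x axis), in all sorted cells, the DP gate and the CD8 SP gate, with genes that passed the edgeR threshold in red. The 24, 5 and 13 genes called lie from 27.3 Mb before to 3.01 Mb after H2-Ab1.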

How the data were processed

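RNA and antibody values were UMI counts, which the authors deposited as 1 10x matrix per lane after Cell Ranger 3.1.0 with mm10 (GRCm38). Hashtag features and matrices pooled over samples were not used. Cells with at least 200 genes and at most 15% mitochondrial UMIs were kept, predicted doublets (scrublet in scanpy 1.11.5) included. Gates were cut at density minima of antibody UMIs per 10000, log2(value + 1), so they were set on these data. Sums of UMIs per mouse entered the quasi-likelihood test of edgeR 4.0.16 (R 4.3.3, limma 3.58.1) after filterByExpr and TMM scaling, with Benjamini-Hochberg adjustment over all features tested and calls at an adjusted p under 0.05, and the SE was computed from the fold change and F. The script was tested on simulated data. DESeq2 1.42.0, library size scaling, other gates and filters and leaving out each mouse were alternatives. Nothing in the labels says more than that the replicates were separate mice.

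Of 28692 gene IDs, 28416 had a position in GENCODE vM21. Genes named were the 12 largest rises and falls per comparison among those called, without overlap and with at least 20 CPM in the higher group, antibodies called with at least 10 per 10000, and members of 23 gene lists. The comparison and the lists were chosen with earlier results of these data known. Shares of cells with a UMI were taken after thinning to 1500 UMIs with Python 3.11.15. The CD69 and CD127 subsets, shares per 100 DP cells, chromosome 17 positions, promoter motifs and UMI shares of Tcrg-C1 and Hhex were added after seeing the data. Intervals cover counting error only. Results for some members of the lists are not reported here.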

Additional observations from a re-analysis of the deposited data

Results flagged for a closer look

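Genes were flagged where they were called in opposite directions in different gates, without overlap between the genotypes in either. S100a6 was flagged for the SP gates. Its log2 fold change of MHCII-/- over WT was 3.83 in the CD4 SP gate, from 30.9 and 42.9 to 592 and 506 CPM (edgeR adjusted p = 9.88e-06), and -1.38 in the CD8 SP gate, from 22.2 and 34.2 to 9.79 and 11.1 CPM (edgeR adjusted p = 0.0437). Trpm1 behaved likewise, with 2.18 in the CD4 SP gate, from 12.8 and 11.4 to 52.8 and 62.0 CPM (edgeR adjusted p = 2.74e-07), and -0.90 in the CD8 SP gate, from 36.4 and 34.2 to 19.4 and 18.4 CPM (edgeR adjusted p = 0.0352). The difference between the gates was not tested for either gene.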

How the results depend on the processing

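No paired analysis was possible because the labels give no pairing between WT and MHCII-/- mice. The directions of the shares of the DP, CD4 SP, CD8 SP and CD4-CD8a- gates held without each mouse, at differences of 25.6 to 35.7, -41.0 to -34.7, 5.28 to 8.81 and 0.0128 to 0.276 percentage points. Counts of calls were less stable, and the cause was not tested.

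Over all sorted cells, the 137 RNA calls became 86 with library size scaling, 305 with the MHCI-/- mice in the fit, 307 with DESeq2 and 679 with no low-count filter, and 62 to 842 without single mice. The 7 of the DP gate became 21 with the MHCI-/- mice, 30 with WT 1 added, 47 with DESeq2, 119 with no filter and 134 in CD69-positive cells, and 34 to 56 without single mice. Those 134 became 67 with DESeq2 and 310 with no filter, and 53 to 873 without single mice. The 1663 of the CD4 SP gate became 820 with DESeq2 and 800 in CD69-positive cells, and 877 to 2410 without single mice. The 27 of the CD8 SP gate became 134 with no filter and 15 in CD69-positive cells, and 42 to 478 without single mice.

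The 24 antibody calls over all sorted cells became 8 with library size scaling and 5 with WT 1 added, and 2 to 51 without single mice. Those of the DP gate, 4, became 1 with WT 1 added and 1 with the antibody filters, and 2 to 29 without single mice. The 37 of the CD4 SP gate became 19 with WT 1 added, and 24 to 30 without single mice. The 1 of the CD8 SP gate became 2 with library size scaling and 0 with the MHCI-/- mice in the edgeR fit (5 at an unadjusted p under 0.05), and 1 to 34 without single mice. The difference in the share of CD4 SP cells with Zbtb16 UMIs, 5.08 percentage points, was 2.92 at 1000 UMIs, 7.83 at 2500 and 17.9 without thinning.

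Directions turned for a few single features. In CD69-positive CD4 SP cells the log2 fold changes were -1.78 for Bcl2a1b, -1.62 for Bcl2a1d, -0.08 for Calr, -0.38 for Capg, -0.47 for Icos, -0.35 for Il18r1, -0.08 for Izumo1r, -3.10 for Nrp1, -0.38 for Ppp3ca and 0.39 for Trib2. Cd40lg was at 0.02 in CD69-negative CD4 SP cells, Dntt at 0.63 in CD69-positive CD8 SP cells, and Ly-6C antibody over all cells at -0.20 with WT 1 added. With 2 mice a group, differences smaller than the spread between mice could not be resolved.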

Other observations

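Counts of the other gene groups in the CD4 SP gate are read against the 16.1% of all genes called there (8.31% higher and 7.81% lower), and several lie near that share. Of 10 calcineurin and NFAT genes, which carry the calcium arm of TCR signaling, Nfatc1 and Ppp3ca were called higher and Ppp3cb, Ppp3cc and Rcan3 lower, with a median log2 fold change of -0.22. Of 13 Bcl2 family genes, which set the threshold of cell death, Bcl2a1b, Bcl2a1d and Bax were called higher and Bcl2l1 and Bbc3 lower, with a median of 0.28. Bcl2a1b and Bcl2a1d are near-identical copies and their split is uncertain. In CD69-positive cells alone Bcl2a1b, Bcl2a1d and Ppp3ca had log2 fold changes of the other sign, -1.78, -1.62 and -0.38, as did Trib2 at 0.39. Besides Pdcd1 higher, Bbc3, Nfkb2, Cd200 and Trib2 were called lower among 8 negative selection genes. Of 16 cell cycle genes Mcm4, Mcm6 and Mcm7, of the replicative helicase, were called higher, with a median of 0.50, and of 14 immature DP genes Cxcr4 and Mns1. Of 8 class II presentation genes Ctss, a lysosomal protease, and H2-DMb2 were called lower.

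Lists of other cell types had 1 of 4 B cell genes (Cd79b), 2 of 7 myeloid genes (Tyrobp and Fcer1g), 1 of 2 thymic epithelial genes (Epcam) and 2 of 5 natural killer and innate lymphoid genes (Kit and Id2) called higher in that gate. Of 5 dissociation stress genes Hsph1 was called higher and Ier2 lower, 0 of 4 Trbv segments were called by edgeR, and no erythroid gene was tested. The part of such cells in the differences of the gate was not tested.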
